A study of Mus musculus with 12 samples.

Results

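The mouse liver carboxylesterases described here are 10 genes (Ces1b, Ces1c, Ces1d, Ces1e, Ces1f, Ces1g, Ces2a, Ces2c, Ces2e and Ces3a), found by their symbols among the 48795 genes of the table. The table holds 10 further carboxylesterase genes, 7 of which had too few reads in liver to be tested. Liver RNA was sequenced from 12 female littermate mice, all 4 months old and on normal chow, from a line with a whole-body Nts knockout bred through heterozygotes. Nts encodes neurotensin, a gut peptide released after a fatty meal. There were 3 mice in each of 4 groups: labelled Nts+/+ and fed ad libitum (mice 254, 257 and 323), labelled Nts+/+ and fasted for 22 h (265, 282 and 322), labelled Nts-/- and fed (277, 303 and 319), and labelled Nts-/- and fasted (284, 290 and 295). All 12 carried the batch label 2015. The design asks how fasting changes liver transcripts and whether that depends on neurotensin.

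Reads of Nts went against the genotype labels. Nts had 0 counts in the 6 libraries labelled Nts+/+, which allows up to 0.136 CPM (expected counts divided by the total of their library and put on a common scale) in the shallowest of them, and 4 to 46 counts in the 6 labelled Nts-/-. The part of the gene that the knockout removes is not given in the sources used here. The genotypes are therefore given below as labelled, and every direction between them rests on those labels. Library totals ran from 21999656 to 45273081 expected counts. For the liver label, 5 hepatocyte markers, Alb the highest among them, summed to between 110800 and 137500 CPM in every library, while 4 of 5 exocrine pancreas markers were at 0 in every library.

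Carboxylesterases are serine hydrolases that split esters, thioesters and amides. Most sit in the lumen of the hepatocyte endoplasmic reticulum, where they hydrolyse ester drugs and also cleave stored triacylglycerol and cholesteryl esters, some of which is then packed into very low density lipoprotein (VLDL). Ces1c is the secreted plasma esterase of the mouse, Ces1d is a triacylglycerol hydrolase of the endoplasmic reticulum and the lipid droplet, Ces1e (egasyn) holds β-glucuronidase in the endoplasmic reticulum, and Ces1g and Ces2c have been tied to liver triacylglycerol and diacylglycerol hydrolysis. All 10 members lay on chromosome 8 (GRCm38): the Ces1 genes in order from Ces1b at 93056728-93080017 to Ces1g at 93302369-93337308, and the Ces2 and Ces3 genes from Ces2a at 104734003-104741634 to Ces3a at 105048601-105058413.

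Levels between genes were compared per kb of the longest annotated transcript, as CPM scaled by the trimmed mean of M values (TMM) and divided by that length. Ces1c stood far above the rest, at 2099 ± 360 CPM per kb (SD, n = 12 mice), and was higher than Ces1d in 12 of 12 livers. Ces1d followed at 324 ± 88.8, Ces3a at 271.5 ± 116, Ces1f at 133.9 ± 37.5, Ces2a at 117.8 ± 36.6 and Ces1g at 97.7 ± 24.9 CPM per kb. The lower end of the order held Ces2e at 59.3 ± 16.4, Ces1e at 57.2 ± 12.0, Ces1b at 23.1 ± 4.33 and Ces2c at 6.45 ± 3.06 CPM per kb. Several neighbours in this order exchanged places between mice. Ces1d was above Ces3a in 7 of 12 livers, Ces1f above Ces2a in 9, Ces2a above Ces1g in 9, and Ces2e above Ces1e in 6, whereas Ces3a was above Ces1f, Ces1g above Ces2e, Ces1e above Ces1b and Ces1b above Ces2c in 12 of 12.

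The order of means was the same per kb of coding sequence, but per kb of mean transcript length Ces1e lay above Ces2e. The share taken by Ces1c was not fixed by the data alone. Ces1c held 65.8% of the summed CPM per kb of the 10 genes on transcript length and 53.9% on coding length, since its longest annotated transcript has 1871 bases against 4050 for Ces1d. As plain CPM the 10 genes together took 0.544% to 0.943% of each library.

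**Figure D1:**
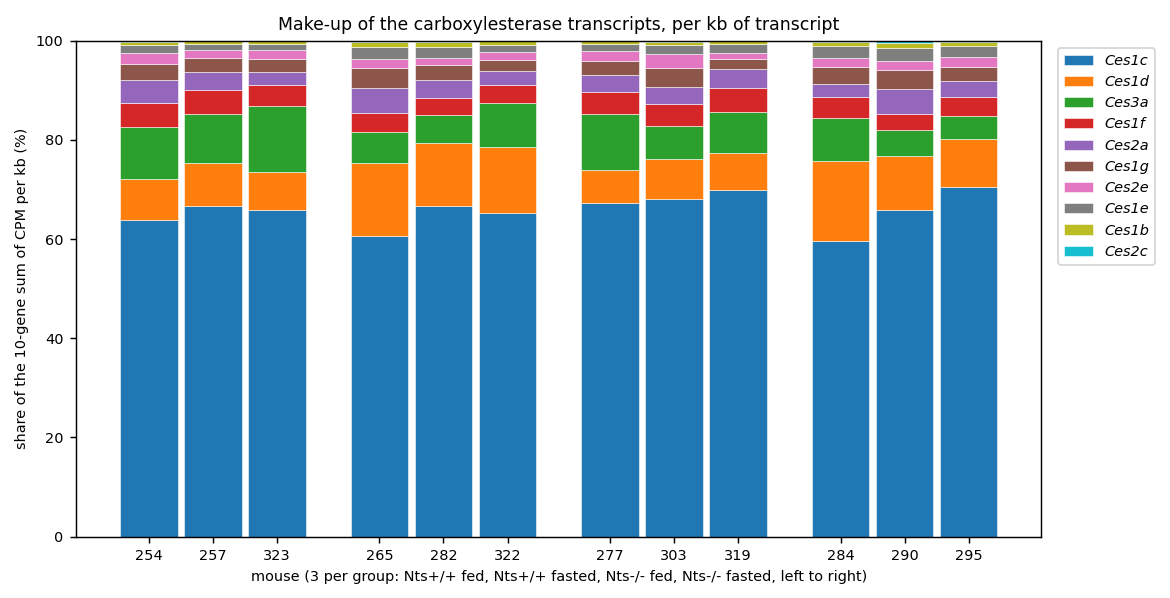
Share of each of the 10 carboxylesterases in their summed level (CPM per kb of transcript, %), 1 bar per mouse, stacked from the most to the least abundant gene. Ces1c fills 59.6% to 70.6% of every bar, and the Ces1d segment is larger in each of the 6 fasted mice (9.67% to 16.2%) than in each of the 6 fed mice (6.67% to 8.81%).

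In livers labelled Nts+/+, Ces1c, Ces1f and Ces3a fell on fasting, the most abundant esterase and 2 of the next 3 among them, and 0 members rose. The test was edgeR's quasi-likelihood test with Benjamini-Hochberg adjustment over all genes, as for every adjusted p below, and a call needed an adjusted p under 0.05. Across all 13812 genes tested, 18.1% passed in this comparison, 9.19% lower and 8.91% higher when fasted. In livers labelled Nts-/-, Ces1f alone passed, again lower, where 16.8% of all genes passed, 9.14% lower and 7.7% higher. The median log2 fold change of the 10 members was -0.31 in livers labelled Nts+/+ and -0.22 in those labelled Nts-/-, against -0.0032 and -0.011 over all genes tested.

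Ces1f showed the fall in both labelled genotypes. Its level was 522, 545 and 398 CPM in the fed livers labelled Nts+/+ and 366, 248 and 284 CPM in the fasted ones. In livers labelled Nts-/- it was 400, 419 and 465 CPM fed and 333, 219 and 286 CPM fasted. Every fasted liver was below every fed liver of its own label. The log2 fold change was -0.71 ± 0.19 (SE; edgeR, adjusted p = 0.0194) under the Nts+/+ label and -0.62 ± 0.19 (edgeR, adjusted p = 0.0372) under the Nts-/- label, close to a fall to 0.613 and 0.653 of the fed level. With 1 mouse left out, Ces1f passed in 2 of 6 fits under the Nts+/+ label (edgeR, adjusted p up to 0.0989). Under the Nts-/- label it passed in 1 of 6 (adjusted p up to 0.1505).

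Ces1c, the most abundant member, moved less but evenly. Fed livers labelled Nts+/+ held 4692, 5160 and 4287 CPM and fasted ones 3844, 3257 and 3442 CPM. Fed livers labelled Nts-/- held 4011, 4260 and 4511 CPM and fasted ones 3218, 2975 and 3480 CPM. The fed and fasted ranges did not overlap under either label, and the within-group coefficient of variation, 7.87% on average, was the smallest of the 10 members. The log2 fold changes were -0.42 ± 0.14 (edgeR, adjusted p = 0.0490) and -0.40 ± 0.14 (adjusted p = 0.0623). The former passed by a small margin, and did not pass with RLE scaling, without the filter on low counts or with only the 6 mice compared (edgeR, adjusted p up to 0.108). With 1 mouse left out, the former passed in 1 of 6 fits (edgeR, adjusted p up to 0.189). The latter did not pass, although the sizes differed by 0.021 on the log2 scale.

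Ces3a, which lies beside its copy Ces3b, had the largest fall of the 10 members in livers labelled Nts+/+. It went from 1201, 1196 and 1349 CPM in fed livers to 624, 437 and 734 CPM in fasted livers, with no overlap. Under the Nts-/- label the fed livers held 1036, 637 and 824 CPM and the fasted ones 720, 377 and 346 CPM, so that the fasted mouse 284 lay above the fed mouse 303. The log2 fold change was -1.06 ± 0.28 (edgeR, adjusted p = 0.0202) and -0.79 ± 0.28 (adjusted p = 0.0694), respectively. With 1 mouse left out, Ces3a passed in 2 of 6 fits under the Nts+/+ label (edgeR, adjusted p up to 0.0839).

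**Figure D2:**
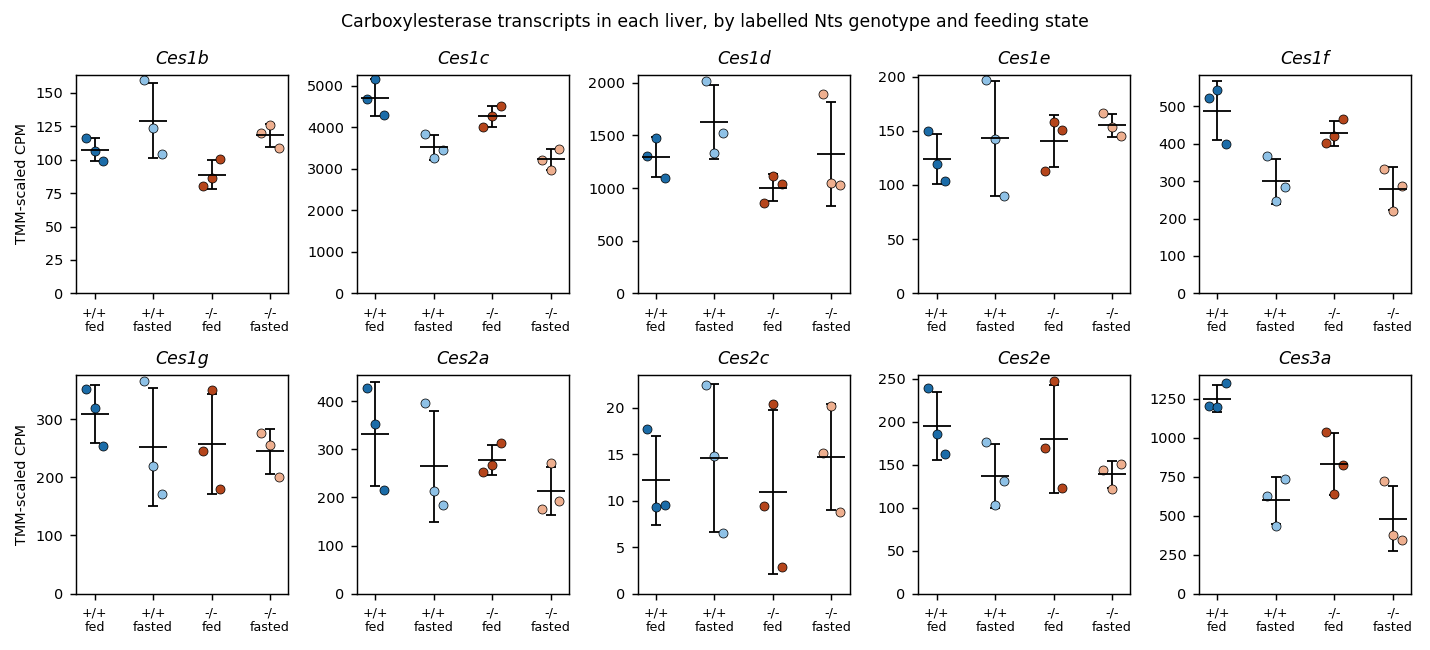
TMM-scaled CPM of each carboxylesterase in each of the 12 livers, by labelled Nts genotype and feeding state. Points are mice, horizontal bars are group means and whiskers are the SD (n = 3). Ces1c and Ces1f separate fed from fasted livers under both labels and Ces3a under the Nts+/+ label, while Ces2c spreads from 2.86 to 22.4 CPM without such a separation.

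Non-overlap on its own was common in these data. Of all genes tested, 17.9% were lower and 18.1% higher in every fasted than in every fed liver labelled Nts+/+, and 18.1% were lower and 17.1% higher under the Nts-/- label. Of the 10 members, 3 were lower in that sense and 0 higher under the Nts+/+ label, and 2 were lower and 1 (Ces1b) higher under the Nts-/- label. With 3 mice a side, the calls also moved with single mice. In the Nts+/+ comparison, 0 members passed without mouse 254 or without mouse 282, 1 without 257, 265 or 322, and 2 without 323. Fewer of all genes tested passed in each of these fits as well, the fewest without 282 and then 254, and the most without 323. The lost calls are therefore not shown to be particular to the carboxylesterases. In the Nts-/- comparison, 0 passed without 277, 303, 290 or 295, 1 (Ces1b, higher) without 319, and 2 (Ces1f and Ces3a) without 284.

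The fasting effect averaged over both labels, a contrast of 6 fasted against 6 fed mice was chosen after the values had been seen. Ces1c (log2 fold change -0.41 ± 0.10, edgeR adjusted p = 0.0056), Ces1f (-0.66 ± 0.13, adjusted p = 0.00186) and Ces3a (-0.93 ± 0.20, adjusted p = 0.00321) passed, and each passed in all 12 fits that left out 1 mouse. Ces1b passed in the other direction (0.34 ± 0.11, adjusted p = 0.0279), but in 5 of 12 such fits, and was lost without mouse 257, 323, 265, 277, 303, 284 or 290, with an adjusted p of up to 0.0714. This contrast passed 32.8% of all genes, 16.8% lower and 16% higher when fasted.

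**Figure D3:**
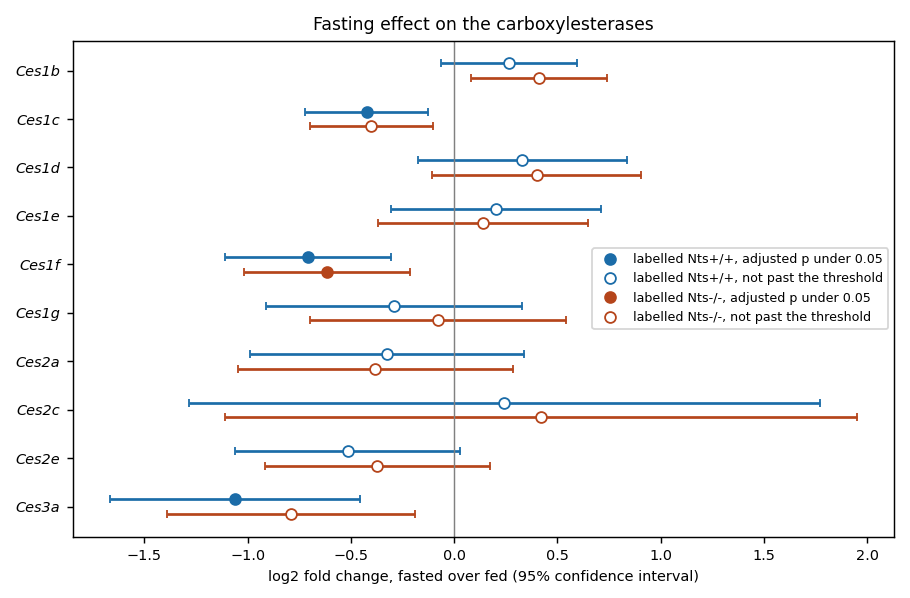
Log2 fold change of each carboxylesterase, fasted over fed, with its 95% confidence interval, for livers labelled Nts+/+ (blue) and Nts-/- (red). Filled points passed an adjusted p of 0.05, and the intervals of the 2 labels overlap for every gene.

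Ces1b and Ces1c, which passed in opposite directions in that contrast, have closely related promoters. RefSeq windows on GRCm38.p6, matched by symbol, were available for 7 of the 10 members, in 8 windows of 250 bases before and 50 after a start, with a pair of starts for Ces1b. The nearest pair from different genes was Ces1b and Ces1c, with 255 identical positions of 300 when aligned, ahead of Ces2a and Ces2c with 201. The 250 bases before the start are shown for this pair, 5′ to 3′ on the minus strand, because they are so alike while the transcripts differ in level and in course. Capitals mark stretches of 12 or more bases that also occur in the other sequence.
Ces1b, chr8:93079941-93080190: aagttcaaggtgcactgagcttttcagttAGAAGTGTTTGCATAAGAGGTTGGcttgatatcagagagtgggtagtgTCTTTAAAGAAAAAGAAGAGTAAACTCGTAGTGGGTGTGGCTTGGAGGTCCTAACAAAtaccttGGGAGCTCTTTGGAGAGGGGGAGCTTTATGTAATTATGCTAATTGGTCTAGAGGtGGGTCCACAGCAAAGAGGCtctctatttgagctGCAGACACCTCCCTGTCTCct
Ces1c, chr8:93131284-93131533: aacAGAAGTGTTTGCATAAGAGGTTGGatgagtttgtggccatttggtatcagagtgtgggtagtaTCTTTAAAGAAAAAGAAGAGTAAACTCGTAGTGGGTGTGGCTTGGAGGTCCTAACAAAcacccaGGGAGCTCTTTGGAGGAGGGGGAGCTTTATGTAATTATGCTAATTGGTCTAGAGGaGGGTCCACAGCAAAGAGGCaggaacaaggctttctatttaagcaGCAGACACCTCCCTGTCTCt
Of the 250 bases, 174 in Ces1b and 175 in Ces1c fell in such stretches, the longest of 58 bases. The Ces1c window ends at the gene's end in the table, whereas the Ces1b window shown belongs to an annotated start inside the gene.

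The motif TTGCATAA, a C/EBP-type motif searched, like the others, on both strands, occurred in both genes' windows and in 0.743% of the 32851 promoter windows of the same length. AGGTCA, the hexamer bound by nuclear receptors, was found in the Ces2a window and in 16.3% of all windows. TATAAA was found in the Ces1g window and in 13.6% of all windows. CCAAT was found in 6 of the 8 member windows, against 37.4% of all. TGTTTAC, a forkhead motif held by 3.65% of all windows, was in none of the 8. These are matches of letters in a window, and binding was not measured.

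Ces1b had 117, 107 and 99.1 CPM in fed and 160, 124 and 104 CPM in fasted livers labelled Nts+/+, where the ranges overlapped. Under the Nts-/- label it had 80.2, 86.0 and 101 CPM fed and 120, 126 and 109 CPM fasted, with every fasted liver higher. Its log2 fold changes were 0.27 ± 0.15 (edgeR, adjusted p = 0.250) and 0.41 ± 0.15 (adjusted p = 0.0822), and neither passed. Within a mouse, there were 2.00 to 2.48 CPM of Ces1b for each 100 CPM of Ces1c in the 6 fed livers and 3.03 to 4.24 in the 6 fasted livers. The ratio thus did not overlap between feeding states. It was looked at after the separate values had been seen and was not tested.

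Related genes that share stretches of sequence limit some of these values. Of the 50-base windows of the longest Ces2c transcript, 37.8% also occurred in another carboxylesterase, mainly the pseudogene Ces2d-ps, as did 13.7% of those of Ces3a (in Ces3b), 13.1% of those of Ces1c (mainly in Ces1b) and 4.35% of those of Ces1b. The figure was between 0.365% and 3.30% for the other 6 members. On 100-base windows it was 14% for Ces2c, 5.09% for Ces3a, 1.35% for Ces1c, 0.510% for Ces1b and 0% for the other 6. Reads in shared windows are divided between copies by estimation, and expected counts of Ces1b, Ces1c and Ces3a were not whole numbers in any of the 12 libraries. Ces2d-ps was given at most 3.26 counts in any library, against 70.7 to 562 for Ces2c. Ces3a was then added to Ces3b and Ces1c to Ces1b, whereas Ces2c was not summed with Ces2d-ps. Ces3a plus Ces3b fell under both labels, with log2 fold changes of -1.10 ± 0.27 (edgeR, adjusted p = 0.0130) and -0.91 ± 0.27 (adjusted p = 0.0319). Ces1c plus Ces1b gave -0.40 ± 0.14 (adjusted p = 0.0587) and -0.38 ± 0.14 (adjusted p = 0.0760).

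The means of Ces1d and Ces1e, neighbours of Ces1f on the chromosome, were higher in fasted livers, but neither passed. Ces1d had 1309, 1478 and 1098 CPM in fed and 2019, 1336 and 1523 CPM in fasted livers labelled Nts+/+, and 860, 1115 and 1038 CPM in fed and 1893, 1048 and 1031 CPM in fasted livers labelled Nts-/-. The groups overlapped under both labels, and mouse 284 lay far above the 2 other fasted mice of its label. The log2 fold changes were 0.33 ± 0.24 (edgeR, adjusted p = 0.363) and 0.40 ± 0.24 (adjusted p = 0.271). Without mouse 284 the latter was 0.052. As a share of the family sum, Ces1d was higher in every fasted liver (12.9% ± 2.43, n = 6) than in every fed liver (7.86% ± 0.745, n = 6). Most of that sum is Ces1c, which was lower in fasted livers, so the share is not a measure of Ces1d alone. Mice 290 and 295, at 1048 and 1031 CPM of Ces1d, lay within the fed range of their label. Their sums were 2412 and 2634 CPM per kb against 3185 to 3447 in the fed livers of that label. Mouse 282 also lay within the fed range of its label, whereas mice 265, 322 and 284 lay above theirs. The Ces1b share was likewise higher in every fasted liver (0.768% to 1.09%) than in every fed liver (0.524% to 0.617%). The part of Ces1c in these shares was not tested.

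Ces1e had log2 fold changes of 0.20 ± 0.24 (edgeR, adjusted p = 0.594) and 0.14 ± 0.24 (adjusted p = 0.729), over a range of 90.0 to 197 CPM in the 12 livers. Gusb, the β-glucuronidase that Ces1e retains, had 31.5 ± 0.970 CPM fed and 36.1 ± 3.94 CPM fasted under the Nts+/+ label, and 29.7 ± 2.37 and 35.4 ± 0.446 CPM under the Nts-/- label (SD, n = 3). It did not pass in either comparison (edgeR, adjusted p = 0.241 and 0.126). In the contrast averaged over labels Gusb passed as higher (log2 fold change 0.22 ± 0.077, edgeR adjusted p = 0.0387).

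Ces1g and the 3 Ces2 genes overlapped between fed and fasted livers under both labels. Ces1g ranged from 172 to 365 CPM, Ces2a from 176 to 428, Ces2e from 103 to 247 and Ces2c from 2.86 to 22.4 CPM over the 12 livers, the last a 7.83-fold span. Ces2c had the largest within-group coefficient of variation of the 10 members, 53.4% on average. In livers labelled Nts+/+, the fasting log2 fold change was -0.29 ± 0.28 for Ces1g, -0.33 ± 0.30 for Ces2a, -0.52 ± 0.25 for Ces2e and 0.24 ± 0.68 for Ces2c. In those labelled Nts-/- the values were -0.077 ± 0.28, -0.38 ± 0.30, -0.37 ± 0.25 and 0.42 ± 0.68. None of these 8 tests passed (edgeR, adjusted p from 0.177 to 0.888). Under the Nts+/+ label, leaving out 1 mouse moved Ces1g from -0.65 (without 265) to -0.077 (without 322) and Ces2a from -0.73 (without 265) to -0.10 (without 254). Ces2e under the Nts-/- label went from -0.58 (without 319) to -0.061 (without 303). In the contrast averaged over labels, neither Ces2a nor Ces2e passed with all 12 mice (edgeR, adjusted p = 0.234 and 0.0734). With 1 mouse left out, Ces2a passed as lower in 1 of 12 fits (without 265, edgeR adjusted p = 0.0315). Ces2e did so in 2 of 12 (without 265 or 319, adjusted p = 0.0325 and 0.0198). In the other fits the adjusted p reached 0.452 for Ces2a and 0.184 for Ces2e. The interval for Ces2c under the Nts+/+ label ran from -1.29 to 1.77, so that a change of more than 2-fold in either direction was within it.

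**Figure D4:**
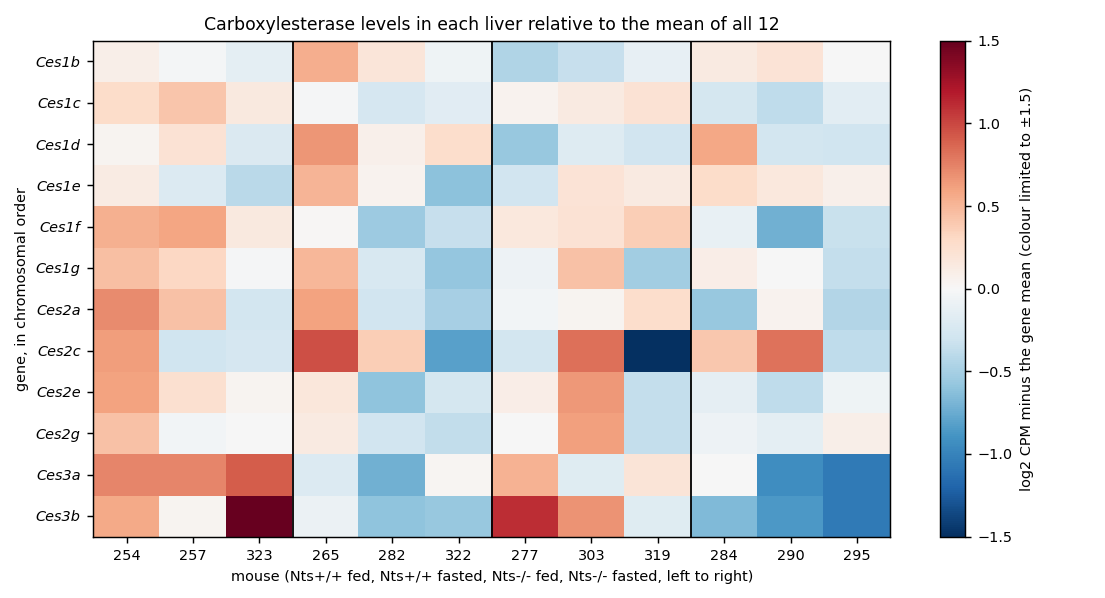
Log2 CPM of the 10 members and of Ces2g and Ces3b in each liver, minus the gene's mean over the 12 livers, with genes in chromosomal order. Red is above and blue below the mean, colour is limited to ±1.5, and the Ces3a and Ces3b rows are blue in most fasted livers while mouse 319 is darkest for Ces2c.

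Single mice carried much of the spread. Among fasted livers labelled Nts+/+, mouse 265 had the highest value of the group for 9 of 10 members, Ces3a being the exception. Among fed livers labelled Nts+/+, mouse 323 had the lowest value for 8 of 10. The share of all genes with these ranks was not computed, so the counts are not shown to be particular to the carboxylesterases. Mouse 319, fed and labelled Nts-/-, had the lowest Ces2c of all 12 livers (2.86 CPM), with 179 CPM of Ces1g and 122 CPM of Ces2e against 245 and 169 CPM or more in the 2 other mice of its group.

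No member passed between the genotype labels. In fed livers the log2 fold change of Nts-/- over Nts+/+ as labelled was below 0 for 9 of 10 members, with a median of -0.22 against 0.010 over all genes tested. In fasted livers it was below 0 for 7 of 10, with a median of -0.11 against -0.0087. By edgeR, 0 of the 13812 genes passed in fed livers (background 0%), 0 in fasted livers (0%) and 0 for the difference between the fasting effects (0%), with 876, 685 and 663 genes at an unadjusted p under 0.05, among them 0 members. DESeq2 and limma-voom passed 0 members in each of these 3 comparisons as well.

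Ces3a had the largest genotype value of the 10 members in fed livers. The 3 fed livers labelled Nts-/- were all below the 3 labelled Nts+/+ (at most 1036 against at least 1196 CPM), as were 5.85% of all genes tested, with a log2 fold change of -0.59 ± 0.28 (95% interval -1.18 to 0.014; edgeR, adjusted p = 0.777). In fasted livers it was -0.31 ± 0.28 (-0.91 to 0.28; adjusted p = 0.923), where the groups overlapped and leaving out 1 mouse gave -0.73 (without 284) to -0.12 (without 295). Ces1d gave -0.37 ± 0.24 fed (-0.87 to 0.14) and -0.30 ± 0.24 fasted (-0.80 to 0.21), the latter from -0.65 without mouse 284 to -0.12 without mouse 265. Ces1b gave -0.27 ± 0.15 (-0.60 to 0.057) and -0.13 ± 0.15 (-0.46 to 0.20). For the abundant and least variable Ces1c the intervals were narrower, at -0.15 (-0.44 to 0.15) and -0.12 (-0.42 to 0.17), and for Ces1f they ran from -0.59 to 0.21 and from -0.50 to 0.30.

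**Figure D5:**
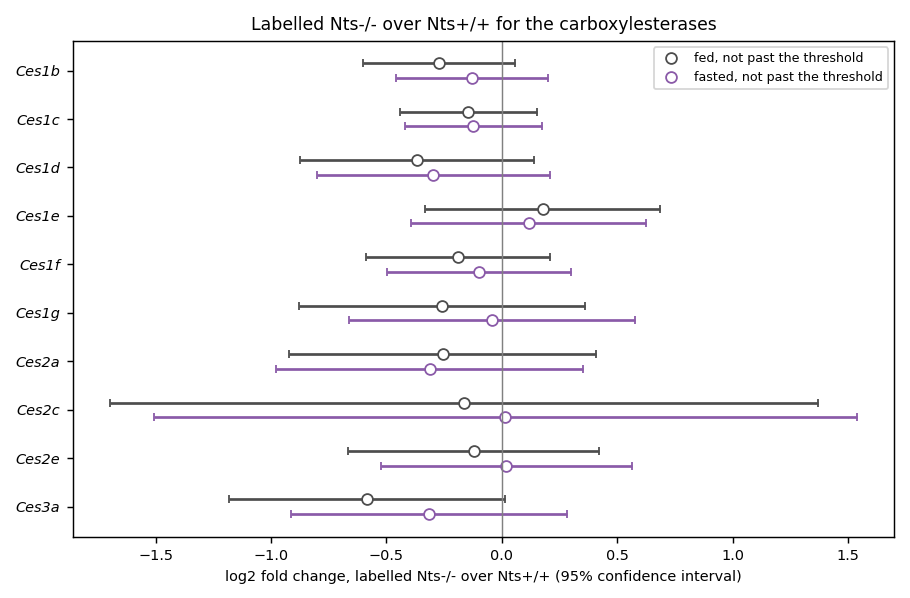
Log2 fold change of each carboxylesterase between livers labelled Nts-/- and Nts+/+, with its 95% confidence interval, in fed (grey) and fasted (purple) mice. No point passed the threshold, and the fed values lie below 0 for 9 of 10 genes.

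The test of the difference between the fasting effects gave no member either. The fall of Ces3a was smaller under the Nts-/- label by 0.27 ± 0.39 on the log2 scale (95% interval -0.57 to 1.12; edgeR, adjusted p = 0.947). The difference was 0.091 ± 0.26 for Ces1f (-0.47 to 0.66) and 0.021 ± 0.20 for Ces1c (-0.40 to 0.44). The passing of Ces1c and Ces3a under only the Nts+/+ label is therefore not shown to be a difference between the labels.

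Of the 10 carboxylesterase genes outside the members, 3 had enough counts to be tested. Ces3b, the neighbour and closest copy of Ces3a, had 216, 150 and 456 CPM in fed and 138, 96.0 and 98.5 CPM in fasted livers labelled Nts+/+, and 316, 233 and 129 CPM in fed and 92.4, 80.1 and 69.9 CPM in fasted livers labelled Nts-/-. Every fasted liver was lower than every fed one of its label. The log2 fold changes were -1.31 ± 0.41 (edgeR, adjusted p = 0.0513) and -1.48 ± 0.41 (adjusted p = 0.0339), and without mouse 277, 303, 284, 290 or 295 the latter did not pass (adjusted p up to 0.122), nor did it without the filter on low counts (adjusted p = 0.0846). The former ranged from -1.60 without mouse 257, where it passed (edgeR, adjusted p = 0.0245), to -0.72 without mouse 323 (adjusted p = 0.146). The largest adjusted p, without mouse 282, was 0.158 (edgeR). In the contrast averaged over labels Ces3b passed as lower (log2 fold change -1.40 ± 0.29, edgeR adjusted p = 0.00449). Ces2g (30.6 to 60.5 CPM) and Ces4a (0.346 to 1.64 CPM) did not pass. Ces1a, Ces2b, Ces2d-ps and Ces2h had at most 11, 4.01, 3.26 and 6 counts in any library, and Ces1h, Ces2f and Ces5a had 0 in all 12.

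Lipid hydrolases outside the family changed in both directions on fasting. Of 13, 5 rose and 2 fell under each label. Over all genes tested, 8.91% rose and 9.19% fell under the Nts+/+ label, and 7.7% and 9.14% under the Nts-/- label. Pnpla2, the adipose triglyceride lipase, went from 49.0 ± 3.29 to 140.5 ± 16.5 CPM (SD, n = 3) under the Nts+/+ label and from 48.5 ± 5.38 to 129.8 ± 26.2 CPM under the Nts-/- label (edgeR, adjusted p = 7.1e-05 and 7.6e-05). Mgll, the monoacylglycerol lipase, rose 2.89-fold and 2.77-fold, and Abhd6, another monoacylglycerol lipase, 2.40-fold and 2.58-fold. The 2 that fell were Pnpla3, to 0.048 and 0.035 of its fed level, and Lipc, to 0.60 and 0.64. Pnpla3 was low throughout, at 4.34 ± 3.54 CPM fed and 0.208 ± 0.082 CPM fasted under the Nts+/+ label. Under the Nts-/- label it had 2.82 ± 0.653 and 0.103 ± 0.098 CPM. Of 10 other esterases and hydrolases, 2 rose under the Nts+/+ label (Ephx2, the soluble epoxide hydrolase, 2.23-fold, and Bche, butyrylcholinesterase, 1.63-fold) and 1 under the Nts-/- label (Ephx2, 2.69-fold). Leaving out mouse 254, 257 or 282 ended the call of Bche, with an adjusted p of up to 0.103.

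Of 12 genes of VLDL assembly, 4 rose and 0 fell under the Nts+/+ label, and 3 rose and 2 fell under the Nts-/- label. The shares of all genes tested were 8.91% and 9.19% under the Nts+/+ label, and 7.7% and 9.14% under the Nts-/- label. Mttp, which loads lipid onto apolipoprotein B, rose 1.90-fold and 2.03-fold. Apoa4, an apolipoprotein of lipid-rich particles, rose 13.6-fold and 16.1-fold. Apob itself rose by 0.77 and 0.58 on the log2 scale, calls that ended without mouse 282 under the Nts+/+ label (adjusted p = 0.0532) and without 303, 319, 284, 290 or 295 under the Nts-/- label (adjusted p up to 0.116). Sort1, sortilin, which is also a neurotensin receptor, fell to 0.503 of its fed level under the Nts-/- label (edgeR, adjusted p = 0.00864) and was at 0.762 under the Nts+/+ label (adjusted p = 0.236). Its difference between labels did not pass (adjusted p = 0.897). In the contrast averaged over labels Sort1 passed as lower (log2 fold change -0.69 ± 0.16, edgeR adjusted p = 0.00412).

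Of 15 regulators of drug and lipid metabolism genes in liver, 3 rose under the Nts+/+ label and 1 rose and 1 fell under the Nts-/- label. Over all genes tested, 8.91% rose and 9.19% fell under the Nts+/+ label, and 7.7% and 9.14% under the Nts-/- label. With so few genes, the regulator counts are not shown to differ from these shares. Nr1i3, the constitutive androstane receptor, went from 159.6 ± 27.7 to 224.8 ± 5.74 CPM and from 88.1 ± 7.95 to 281.3 ± 39.3 CPM (edgeR, adjusted p = 0.0333 and 2.4e-05). Between the labels it did not pass in fed or fasted livers (edgeR, adjusted p = 0.356 and 0.917). The difference between its fasting effects did not pass either (edgeR, adjusted p = 0.888). Ppara, the fatty acid receptor, rose 1.85-fold under the Nts+/+ label, and Nr1h4, the bile acid receptor, 1.42-fold. Nr3c1, the glucocorticoid receptor, fell to 0.654 of its fed level under the Nts-/- label. Leaving out 1 mouse ended the calls of Nr1i3 under the Nts+/+ label (without 257, 323, 265, 282 or 322), of Nr1h4 (without 254, 257, 323, 265 or 282), of Ppara (without 254) and of Nr3c1 (without 277, 303, 284 or 290), with adjusted p of up to 0.159. With upper-quartile scaling Nr1i3 and Nr1h4 did not pass under the Nts+/+ label (adjusted p = 0.0566 and 0.0614).

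Outside the family, the genes with the most similar course over the 12 livers were found for the 3 members that passed, by the mean absolute difference of centred log2 CPM. For Ces1c they were Hsd11b1, the enzyme that regenerates active glucocorticoid (0.070), and Cnn3, a calponin (0.073). For Ces1f they were Tdp2 (0.105) and Ambp, the precursor of the plasma protein α1-microglobulin (0.108). For Ces3a they were C8b, a chain of complement component C8 (0.180), and 4732465J04Rik (0.220). Within the family, Ces1c and Ces1f were the closest pair (0.162), and Ces2c and Ces3a the most distant (1.02).

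Summed markers of some other cells also separated fed from fasted livers. In bulk liver, fewer cells of a type and less RNA per cell cannot be told apart. The 5 endothelial markers summed to 141 to 210 CPM in fed and 109 to 129.7 CPM in fasted livers, the 5 stellate cell markers to 225 to 311 and 195 to 213 CPM, and the 5 cholangiocyte markers, mostly Spp1, to 33.9 to 50.5 and 13.3 to 27.7 CPM. The 5 Kupffer cell markers (252 to 456 and 190 to 342 CPM), the 5 lymphocyte markers (4.42 to 7.32 and 3.93 to 7.66 CPM) and the hepatocyte markers overlapped. The intestinal sum was higher when fasted (41.1 to 97.6 against 109 to 190 CPM) through Fabp2, with Cdx1 and Sis at 0, and the adipocyte sum (0.658 to 2.25 against 15.3 to 51.3 CPM) through Plin4, with Lep at 0 and Adipoq at most 0.212 CPM. The part of these shifts in the carboxylesterase values was not tested. As a check of the fasting label, 5 of 7 fasting-induced genes rose and 6 of 6 lipogenic genes fell under the Nts+/+ label, and 6 of 7 and 6 of 6 under the Nts-/- label.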

How the data were processed

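Liver RNA of 12 mice was measured. The authors deposited 1 table of expected counts per gene, which are estimated reads that need not be whole, made per the labels with Trimmomatic and RSEM on GRCm38, with versions not given in the sources used here and with no scaling between libraries. Columns of other samples number 0. The table's 48795 genes were rounded to whole counts, and 13812 passed filterByExpr. Counts were scaled with TMM and fitted with edgeR 4.0.16 (R 4.3.3, robust quasi-likelihood, 1 mean per group, 12 mice; common biological coefficient of variation 0.202), with Benjamini-Hochberg adjustment over all genes and a threshold of 0.05. The script was tested on simulated data. Each library is a separate mouse.

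A floor of 3 counts was 0.0663 to 0.136 CPM; it covers counting error only. Marker sums and Nts are CPM of the library total, other values TMM-scaled CPM. Lengths came from GENCODE vM39, matched by Ensembl identifier, whose build differs from the files' GRCm38, and gave lengths only.

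The members and lists were chosen with earlier results of these data known. Genes named are the members, the other carboxylesterases, Nts, Gusb, Sort1, up to 3 genes with the smallest p past the threshold in each fasting comparison from each of 4 lists (lipid hydrolases, VLDL assembly, other esterases, regulators), and the 2 nearest patterns of each member that passed. Pnpla3 and Lipc are named besides, as the lipid hydrolases that fell. Alternatives were RLE and upper-quartile scaling, no filter, 10 counts in every mouse, DESeq2 1.42.0, limma-voom (limma 3.58.1), only the 6 mice compared, an adjusted p under 0.1, a log2 change of at least 1, other lengths, and each mouse left out. The average over labels and summed copies were added after seeing the data.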

Additional observations from a re-analysis of the deposited data

How the results depend on the processing

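The falls of Ces1c, Ces1f and Ces3a kept their direction under both labels in every alternative fit. The number of members past the threshold for fasting under the Nts+/+ label (3) was 2 with RLE scaling, 2 with no filter, 2 with only the 6 mice compared, 2 with copies summed, 4 with fasting averaged over labels, 1 with a log2 change of at least 1 and 0 to 2 with 1 mouse left out. Under the Nts-/- label (1) it was 2 with upper-quartile scaling, 2 with limma-voom, 3 with DESeq2, 4 at an adjusted p under 0.1, 0 with a log2 change of at least 1, 4 with fasting averaged over labels, 2 with copies summed, and 0 to 2 with 1 mouse left out. It stayed 0 in every alternative for the genotype labels and their difference. For fasting under the Nts+/+ label, leaving out 1 mouse also lowered the number of all genes past the threshold. RLE and upper-quartile scaling moved the median of all genes by at most 0.041 in size (log2), upper-quartile downwards in both fasting comparisons. The mean Ces1c share of 65.8% was 53.9% on coding length and 54.7% on mean transcript length. Over the other lengths and scalings, 17 of 40 single-gene levels per kb moved by at least their mean within-group SD.

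Leaving out 1 mouse turned the sign of values that had not passed. The log2 ranges were, for fasting under the Nts+/+ label, -0.084 to 0.45 for Ces1e and -0.19 to 0.62 for Ces2c; for fasting under the Nts-/- label, -0.28 to 0.21 for Ces1g, -0.023 to 1.23 for Ces2c and -0.38 to 0.14 for Ces2g; for genotype in fasted livers, -0.26 to 0.044 for Ces1b and -0.25 to 0.066 for Ces1f; and for the difference between fasting effects, -0.049 to 0.084 for Ces1c, -0.064 to 0.25 for Ces1f and -0.15 to 0.47 for Ces3a. Which mice shared a litter is not given in the sources used here, so litter was not modelled and no paired analysis was made. The power to detect a change of a given size was not computed.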
